A study of Mus musculus with 20 samples.

Results

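The synaptotagmin genes Syt1, Syt2, Syt3, Syt4, Syt5, Syt7, Syt11, Syt13, Syt16 and Syt17 were described across growth cones and cell bodies (somata) of mouse subcerebral projection neurons at postnatal day 1. They were chosen by name, with earlier results of these data known. All 10 were found among the 55487 genes of the count table, which holds 17 genes named synaptotagmin. Subcerebral projection neurons are the cortical neurons that send axons to the brainstem and spinal cord. The 20 RNA-seq libraries fell into 4 groups of 5: WT somata and somata labelled Bcl11b KO, both from cortex, and WT growth cones and growth cones labelled Bcl11b KO, both from brainstem and spinal cord. Bcl11b encodes a transcription factor of these neurons. No agent was given to any group in the labels, and how the cells and growth cones were purified, whether the deletion was restricted to some cells, and whether libraries of a group came from separate animals are not given in the sources used here. The p-values therefore measure the spread between libraries, which may be technical.

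Synaptotagmins are proteins of vesicles and cell membranes, most of them with a short membrane anchor and tandem C2 domains. In the calcium-sensing members, acidic residues in loops of the C2 domains bind calcium, and the calcium-bound protein drives SNARE-mediated fusion of a vesicle with the plasma membrane. Syt1 and Syt2 trigger fast transmitter release, Syt3, Syt5 and Syt7 are further calcium-binding members, and Syt4, Syt11, Syt13, Syt16 and Syt17 lack calcium binding in at least part of their C2 domains. In growing axons, vesicle fusion also adds membrane to the growth cone.

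The members differ in the calcium-binding loop of the first C2 domain, and the coding sequence of that loop is shown because it sorts them into the classes used below. Each stretch has 27 bases and was read from the GENCODE M21 transcript with the longest coding sequence (build GRCm38, as are all positions below), 5′ to 3′ along the coding strand. Capitals mark the 3 codons aligned with the aspartate codons of the Syt1 loop.
Syt1: GATtttGACcgcttctccaagcacGAC
Syt2: GACtttGACcgcttctctaagcatGAC
Syt3: GACttcGACcgcttctcgcggcatGAT
Syt5: GACtttGATcggttctcccgcaacGAT
Syt7: GATtatGACcgtttcagccgcaatGAC
Syt11: AGCtttGATcgattctctcgggatGAC
Syt13: ACCtgtGACcgcttctcccgccatAGT
Syt16: GCTgccCGTaagatgacccgggagAGA
Syt17: GATtttGACaaattctcccgccacTGT
The stretches lie at chr10:108627346-108627372 (Syt1, minus strand), chr1:134744432-134744458 (Syt2, plus), chr7:44393448-44393474 (Syt3, plus), chr7:4542284-4542310 (Syt5, minus), chr19:10442878-10442904 (Syt7, plus), chr3:88761819-88761845 (Syt11, minus), chr2:92946102-92946128 (Syt13, plus), chr12:74235130-74235156 (Syt16, plus) and chr7:118433920-118433946 (Syt17, minus). All 3 marked codons encode aspartate (GAC or GAT) in Syt1, Syt2, Syt3, Syt5 and Syt7. Syt11 and Syt17 hold 2 aspartate codons, Syt13 holds 1 and Syt16 holds 0. In Syt11 the first marked codon is AGC, which encodes serine. In a global protein alignment, the amino acids identical to Syt1, as a share of the longer protein, were 77.2% for Syt2, 54.2% for Syt5, 35.6% for Syt11 and 18.4% for Syt16. The sequence of Syt4, which also carries a serine in this loop, is not shown.

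Library totals were 18962308 to 51205154 counts. Levels of a gene are given as CPM (counts scaled to the library size) scaled by TMM over all 20 libraries, and values in single libraries follow the order of their experiment numbers: 12, 14, 22, 25 and 26 for WT somata, 14, 15, 22, 25 and 26 for somata labelled KO, and 7, 8, 9, 10 and 11 for both groups of growth cones. Bcl11b, the targeted gene, was counted at 582, 805, 788, 788 and 536 CPM in WT somata and at 1175, 1141, 1127, 1078 and 1230.4 CPM in somata labelled KO. All 5 somata labelled KO lay above all 5 WT somata, a difference of 0.74 on the scale of log2(CPM + 0.5) (p = 0.00794 in a two-sided exact permutation test, which cannot go lower with 5 against 5). Growth cones labelled KO differed from WT growth cones by -0.03 (p = 0.944 in the same exact test). The Bcl11b counts thus go against the label in somata. Counts over a whole gene do not show which exons were deleted, and the libraries are called labelled KO throughout. All 12 markers of subcerebral projection neurons (such as Fezf2, Crym, Ldb2 and Pcp4) were counted in every library, with summed levels of 2425 to 3074 CPM of the library total in somata and 777 to 1094 CPM in growth cones.

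Per length, Syt4 was the most abundant member in somata and Syt11, Syt5 and Syt4 led in growth cones. In WT somata the mean levels in CPM per kb of exon were 272 for Syt4, 150.0 for Syt5, 123 for Syt11, 48.1 for Syt1, 31.2 for Syt16 and 17.7 for Syt3. Syt7, Syt13, Syt2 and Syt17 followed at 2.42, 1.53, 0.433 and 0.132 CPM per kb. Of neighbours in this order, Syt5 and Syt11 overlapped in their libraries, as did Syt1 and Syt16 and the 4 lowest genes. In WT growth cones the order was Syt11 (57.4 CPM per kb), Syt5 (57.1), Syt4 (43.9), Syt1 (31.8), Syt13 (24.2), Syt3 (17.4), Syt16 (11.8), Syt17 (8.5), Syt7 (5.39) and Syt2 (0.918). Every pair of neighbours overlapped there except Syt7 and Syt2. The genotypes had the members in the same order in growth cones, and in somata labelled KO Syt13 stood above Syt7 and Syt17 above Syt2.

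**Figure D1:**
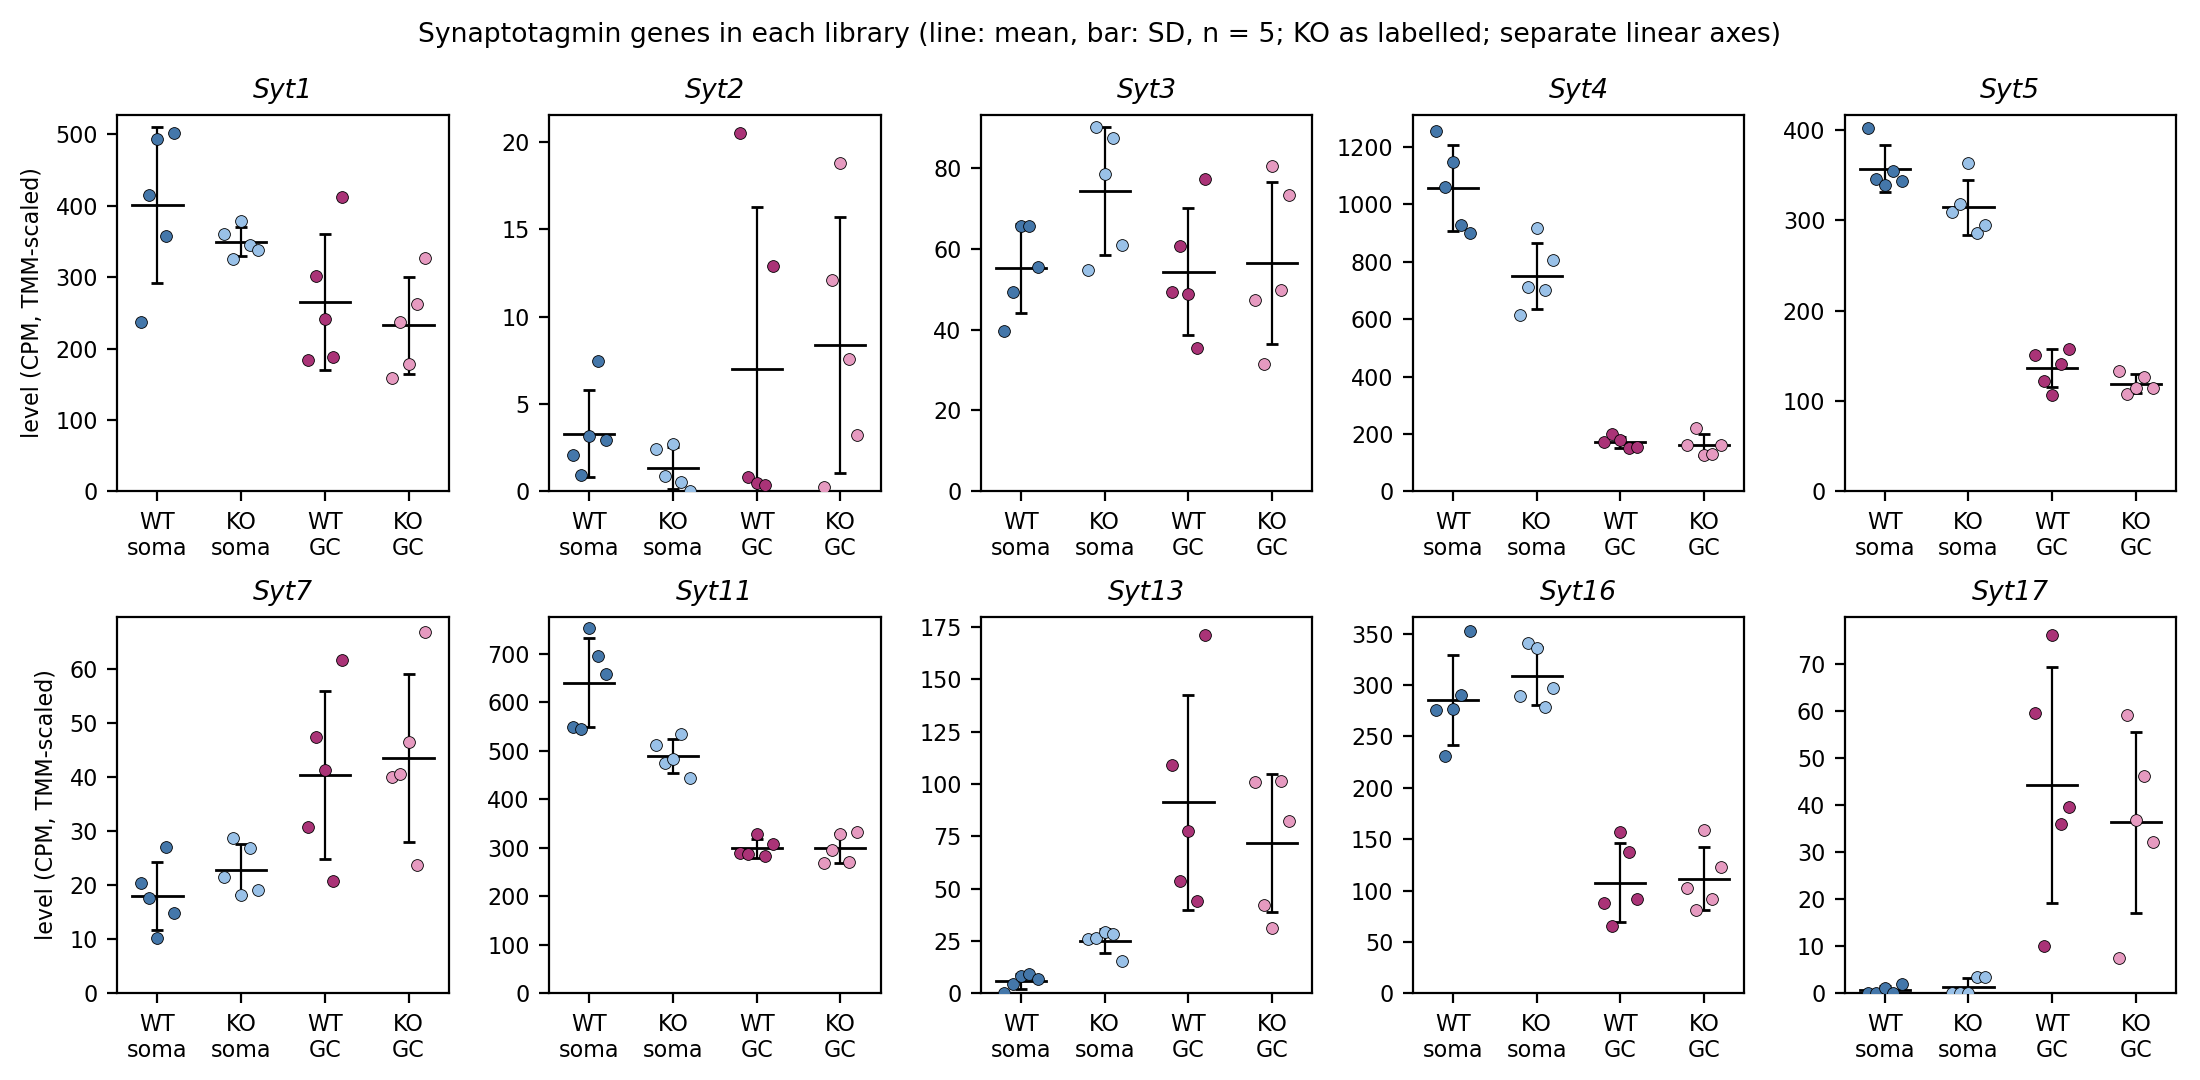
Level of each synaptotagmin gene (y axis, CPM, TMM-scaled, linear and separate for each gene) in every library, by group (x axis; GC, growth cone). Points are libraries, lines the mean and bars the SD of 5 libraries: Syt4, Syt5, Syt11 and Syt16 are lower in all growth cones than in all somata of their genotype, and Syt13 and Syt17 are higher.

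Growth cones were compared with somata to find which members' transcripts made up a larger or smaller part of the growth cone RNA. In WT libraries 3 members were higher in growth cones (Syt7, Syt13 and Syt17), 4 were lower (Syt4, Syt5, Syt11 and Syt16), and Syt1, Syt2 and Syt3 did not pass the test. Of all 15128 genes tested, 42.8% passed at an FDR of 0.05, 23.1% higher and 19.7% lower, and 7 of 10 members did. Of 5 other synaptotagmin genes tested in each genotype, 0 passed in WT and 2 (Syt9, and Syt10, which entered only through somata) were lower in labelled KO libraries. The counts of members therefore do not describe the whole family. In libraries labelled KO the same 3 members were higher and 5 were lower, the same 4 and Syt1, against 21.6% higher and 17.0% lower (38.6% in all) of 15410 genes. The groups did not overlap for 6 members in each genotype, against 37.9% of genes in WT and 36.8% in labelled KO libraries. The median log2 fold change was -0.26 over the members and 0.07 over all genes tested in WT, and -0.42 and 0.11 in labelled KO libraries. All fold changes are relative to the RNA of each library, and compartment, dissected region and RNA input (0.19 to 3.1 ng for growth cones, 1.8 to 3.1 ng for somata) cannot be told apart. In these bulk samples, fewer cells of a type and less RNA per cell cannot be told apart either.

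Syt1, the main sensor for fast release in forebrain neurons (chromosome 10, positions 108497650 to 109010982, minus strand), was counted at 237, 415, 493, 358 and 502 CPM in WT somata and at 184, 302, 241, 188 and 412 CPM in WT growth cones. The ranges overlapped, with 3 of 5 WT growth cones inside the range of the WT somata. In somata labelled KO the levels were 360.1, 326, 379, 345 and 338 CPM and in growth cones labelled KO 158, 237, 178, 262 and 327 CPM, and only growth cones 11 reached the range of the somata. The log2 fold change, growth cones over somata, was -0.55 ± 0.26 (SE) in WT (adjusted p = 0.103) and -0.51 ± 0.18 in labelled KO libraries (adjusted p = 0.0433). The call in labelled KO libraries rested on single libraries and on the scaling: it was lost in 7 of 10 fits without a library (adjusted p up to 0.0938), under upper-quartile scaling (log2 fold change -0.32, adjusted p = 0.173), with DESeq2 size factors (0.0608), library totals (0.147), all 20 libraries in one fit (0.0533) and a covariate for genes detected per library (0.0568). The WT difference passed without WT growth cones 11 (-0.77, adjusted p = 0.0210) and with all 20 libraries in one fit (-0.60, adjusted p = 0.0484).

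Syt2, the fast sensor that takes the place of Syt1 at many brainstem and spinal synapses (chromosome 1, positions 134646677 to 134762593, plus strand), was low and uneven. WT growth cones held 617, 22, 14, 11 and 404 counts, which is 20.5, 0.801, 0.461, 0.365 and 12.9 CPM, and growth cones labelled KO held 6, 334, 543, 236 and 72 counts. WT somata lay at 2.07, 0.921, 3.18, 7.45 and 2.92 CPM and somata labelled KO at 2.44, 0.869, 2.73, 0.545 and 0 CPM. WT growth cones 7 and 11 stood above every WT soma while the other 3 stood below every WT soma. The difference did not pass in WT (1.14 ± 1.14, interval -1.34 to 3.62, adjusted p = 0.449) or in labelled KO libraries (2.75 ± 1.29, interval -0.09 to 5.58, adjusted p = 0.117), and the latter passed with the DESeq2 Wald test (adjusted p = 0.0385) and with the covariate (0.0459). All intervals are 95% confidence intervals of the log2 fold change.

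Syt3, a calcium-binding member of the plasma membrane (chromosome 7, positions 44384102 to 44400187, plus strand), lay at 39.8, 49.2, 65.7, 65.6 and 55.4 CPM in WT somata and 49.4, 60.6, 48.7, 35.4 and 77.3 CPM in WT growth cones. The compartments overlapped, with 3 of 5 WT growth cones inside the range of the WT somata. The log2 fold change was 0.02 with an interval of -0.52 to 0.57 in WT (adjusted p = 0.951), and -0.32 with an interval of -0.91 to 0.28 in labelled KO libraries (adjusted p = 0.388).

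Syt5, a calcium sensor also found on dense-core vesicles (chromosome 7, positions 4539765 to 4547541, minus strand), was lower in growth cones. WT somata held 402, 346, 339, 354 and 344 CPM and WT growth cones 151, 122, 107, 141 and 158 CPM. In libraries labelled KO the somata held 309, 318, 363, 285 and 295 CPM and the growth cones 134, 107, 115, 126 and 114 CPM. No growth cone library of either genotype reached the lowest soma of that genotype. Mean levels fell 2.63-fold in WT, from 357 ± 25.8 to 136 ± 21 CPM (SD, n = 5), with a log2 fold change of -1.35 ± 0.14 (adjusted p = 1.49e-05), and the value in labelled KO libraries was -1.32 ± 0.12 (adjusted p = 7.76e-06).

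Syt7, the slow, high-affinity sensor that acts in asynchronous release and in fusion of lysosomes with the cell membrane (chromosome 19, positions 10389090 to 10453180, plus strand), was higher in growth cones in both genotypes. It was counted at 20.4, 17.7, 10.3, 27.1 and 14.9 CPM in WT somata and 30.8, 47.4, 41.3, 20.8 and 61.6 CPM in WT growth cones. Somata labelled KO held 21.6, 28.7, 18.1, 26.8 and 19.1 CPM and growth cones labelled KO 40.0, 40.6, 46.5, 23.8 and 66.9 CPM. In each genotype 4 of 5 growth cone libraries lay above all somata, and growth cones 10 lay within their range. The means rose 2.23-fold in WT (log2 fold change 1.20 ± 0.37, adjusted p = 0.0195) and 1.9-fold in labelled KO libraries (1.01 ± 0.31, adjusted p = 0.0225). The WT call was lost without WT growth cones 11 (adjusted p = 0.0503) or WT somata 22 (0.0512), and the other call without growth cones 11 or somata 14, 22 or 26 labelled KO (adjusted p up to 0.0612), without the low-count filter (0.0570) and with the covariate (0.0600).

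Syt4, a vesicle protein whose first C2 domain does not bind calcium and which sits on neuropeptide and BDNF vesicles (chromosome 18, positions 31437808 to 31447406, minus strand), showed the largest fall among the members. WT somata held 1256, 1061, 1147, 927 and 899 CPM and WT growth cones 173, 199, 178, 149 and 154 CPM. Somata labelled KO held 615, 711, 919, 703 and 808 CPM and growth cones labelled KO 162, 221, 126, 131 and 163 CPM. Every growth cone library lay below every soma library by a wide margin. The means fell 6.2-fold in WT, from 1058 ± 149.8 to 171 ± 19.9 CPM (SD, n = 5; log2 fold change -2.59 ± 0.14, adjusted p = 1.66e-07), and 4.68-fold in labelled KO libraries (-2.15 ± 0.18, adjusted p = 4.80e-06). Of the exonic bases of Syt4, 566 (14.5%) are shared with the antisense gene Gm26658, and since the use of strand in counting is not given in the sources used here, reads of this stretch cannot be assigned to either gene. Gm26658 held 0 to 28 counts in growth cones and 69 to 321 in somata, against at least 3629 of Syt4 in each library.

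Syt11, the closest relative of Syt4, is a vesicle protein that restrains endocytosis (chromosome 3, positions 88744700 to 88775164, minus strand). It was counted at 549.8, 545, 752, 696 and 659 CPM in WT somata and at 289, 287, 329, 282 and 308 CPM in WT growth cones. Levels in labelled KO libraries were 511, 474, 483, 534 and 443 CPM in somata and 268, 295, 329, 269.7 and 332 CPM in growth cones. All growth cones lay below all somata, and in WT growth cones the values were the most even of any member, with a coefficient of variation of 6.5%. The fall was 2.14-fold in WT (-1.05 ± 0.12, adjusted p = 3.65e-05) and 1.64-fold in labelled KO libraries (-0.63 ± 0.11, adjusted p = 0.000932).

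Syt16, a member without a membrane anchor and without the aspartate codons in the loop shown (chromosome 12, positions 73997661 to 74273267, plus strand), was also lower in growth cones. WT somata held 275, 231, 277, 290.3 and 352 CPM and WT growth cones 87.9, 65.2, 157, 137 and 91.4 CPM. In libraries labelled KO, somata held 289, 341, 336, 279 and 297 CPM and growth cones 103, 81.5, 159, 91.4 and 123 CPM. The compartments did not overlap in either genotype. The fall was 2.64-fold in WT (-1.36 ± 0.23, adjusted p = 0.000518) and 2.76-fold in labelled KO libraries (-1.39 ± 0.18, adjusted p = 0.000133). It shares 183 exonic bases with the antisense gene Gm29587, which had 0 counts in all libraries.

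Syt13, an atypical member that does not bind calcium (chromosome 2, positions 92915098 to 92956058, plus strand), was higher in growth cones. WT somata held 5, 147, 249, 302 and 123 counts, or 0.157, 4.37, 8.09, 9.03 and 7.05 CPM, and WT growth cones 109, 53.7, 77.5, 44.3 and 171 CPM. Somata labelled KO held 25.9, 26.6, 29.2, 28.2 and 15.4 CPM and growth cones labelled KO 101, 42.2, 31.4, 102 and 82.5 CPM. Every growth cone library was above every soma library. The means rose 15.9-fold in WT, from 5.74 ± 3.57 to 91.2 ± 51.4 CPM (SD, n = 5; log2 fold change 4.04 ± 0.77, adjusted p = 0.00116), and 2.86-fold in labelled KO libraries (1.59 ± 0.35, adjusted p = 0.00396). With limma-voom the log2 fold change in WT was 4.72.

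Syt17, a peripheral membrane protein that has been linked to neurite outgrowth (chromosome 7, positions 118380717 to 118448222, minus strand), was found mostly in growth cones. WT somata held 1, 2, 36, 4 and 36 counts and somata labelled KO 0, 1, 0, 138 and 112 counts, while WT growth cones held 1790, 276, 2312, 1082 and 1241 counts and growth cones labelled KO 180, 1634, 1062, 1443 and 712 counts. As levels, WT growth cones lay at 59.6, 10.05, 76.1, 35.9 and 39.6 CPM and growth cones labelled KO at 7.46, 59.1, 36.8, 46.2 and 32 CPM. All growth cones stood above all somata, although growth cones 8 in WT and growth cones 7 in the labelled KO group were several times below the rest of their groups. The log2 fold change was 6.11 ± 1.12 in WT (adjusted p = 0.000912) and 4.79 ± 1.54 in labelled KO libraries (adjusted p = 0.0275), and the latter call was lost without growth cones 8 or 10 labelled KO (adjusted p = 0.0559 and 0.0515). Syt17 did not pass the low-count filter when only somata were compared. It entered these tests only through growth cones, where it is high, so the p-values are not independent support for the direction. Without single libraries the estimate was 5.81 to 7.02 in WT, highest without somata 26. In labelled KO libraries it was 4.45 to 5.45, highest without somata 25 or without somata 26. With limma-voom it was 7.33 and 7.94, and in WT 6.76 with a covariate for how many genes each library detected.

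**Figure D2:**
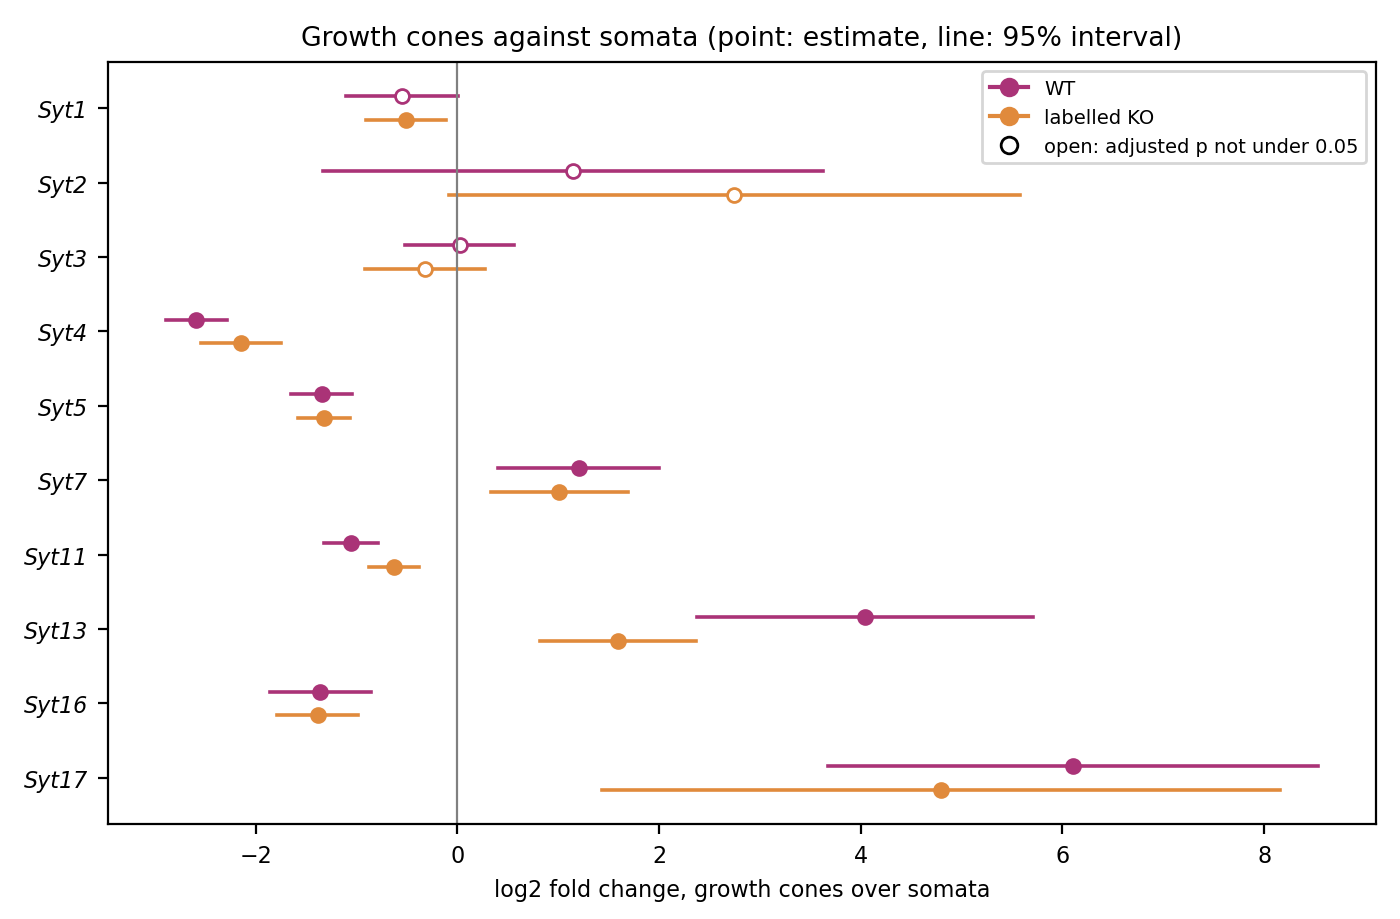
Log2 fold change of each synaptotagmin gene, growth cones over somata (x axis), in WT and labelled KO libraries; points are edgeR estimates, lines 95% intervals, and open points did not pass an adjusted p of 0.05. Syt4, Syt5, Syt11 and Syt16 lie left of 0 in both genotypes, from -2.59 to -0.63, and Syt7, Syt13 and Syt17 lie right of 0, from 1.01 to 6.11.

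Most markers of other cell types were also higher in growth cone libraries. In edgeR's test in WT, higher in growth cones were 8 of 9 hindbrain and spinal cord neuron markers tested, 8 of 10 cortical interneuron, 5 of 8 callosal neuron, 6 of 7 astrocyte, 5 of 7 oligodendrocyte lineage, 3 of 6 vessel and blood, 4 of 4 choroid plexus and meningeal and 1 of 6 microglia markers. Of all genes tested, 23.1% were higher. Markers near 0 in somata enter this test only through growth cones, where they are high, so their calls are not independent support. Between the genotypes' somata, 1 of 14 hindbrain and spinal cord neuron and 2 of 6 choroid plexus and meningeal markers passed the low-count filter. The summed level of 14 hindbrain and spinal cord neuron markers was 0.0902 to 12.7 CPM in somata, 132 to 223 CPM in WT growth cones and 62.7 to 251 CPM in growth cones labelled KO. Of these 14, 10 to 14 were counted in each growth cone library and 2 to 6 in each soma. Chat, the acetylcholine-synthesising enzyme of motor neurons, was the only 1 at 0 in all WT growth cones. Its mean was 0.109 CPM in growth cones labelled KO, where 0 of the 14 were at 0 in all libraries. Isl1 and Slc5a7 of the same list had means of 39.0 and 1.82 CPM in WT growth cones, against 3.72 and 0.586 CPM in WT somata. Sums over 7 astrocyte markers were 19.2 to 238 CPM in somata and 569 to 1077 CPM in growth cones, with all 7 counted in every library. Sums over 7 oligodendrocyte lineage markers were 57.4 to 100.3 CPM in somata and 516 to 2239 CPM in growth cones, with 4 to 7 counted in each soma and 6 or 7 in each growth cone library. Vessel and blood markers (7 genes, 3 to 7 counted in a soma and 6 or 7 in a growth cone library) summed to 0.596 to 64.4 CPM in somata and 237 to 585 CPM in growth cones, and choroid plexus and meningeal markers (6 genes, 2 to 5 counted in a soma and 4 to 6 in a growth cone library) to 0.17 to 8.99 and 356 to 549 CPM. Cortical interneuron markers (10 genes) summed to 116 to 534 CPM in somata and 723 to 987 CPM in growth cones, callosal neuron markers (8 genes) to 285 to 439 and 741 to 1098 CPM, and microglia markers (6 genes) to 3.29 to 89.1 and 11 to 114 CPM. In all WT somata Hoxc6, Lbx1, Chat and the choroid plexus marker Kl were at 0, and in all somata labelled KO so were Hoxb4, Hoxc6, Hoxb8, Hoxc8, Chat, Slc5a7 and Slc6a5. The part of these cells in the higher levels of Syt7, Syt13 and Syt17 and in the lower levels of the other members was not tested.

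Somata labelled KO were compared with WT somata to find members whose transcripts differ with the genotype. No member of the 9 tested passed in edgeR's test, against 0.731% of all 14911 genes tested, and 4 had an unadjusted p under 0.05, against 8.57% of all genes: Syt3, Syt4, Syt11 and Syt13. The DESeq2 Wald test called 3 of them, Syt4, Syt11 and Syt13, against 2.64% of all genes, and limma-voom called 0, against 0.925%. Syt17 was too low to be tested. The groups did not overlap for Syt11 and Syt13, that is for 2 members, against 3.17% of all genes tested.

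Syt13 had a higher mean in the somata labelled KO. The 5 labelled KO libraries lay at 25.9, 26.6, 29.2, 28.2 and 15.4 CPM and the WT libraries at 0.157, 4.37, 8.09, 9.03 and 7.05 CPM, without overlap. The means were 25 ± 5.56 and 5.74 ± 3.57 CPM (SD, n = 5), a ratio of 4.36, with a log2 fold change of 2.13 ± 0.66 (interval 0.69 to 3.56) that did not pass (adjusted p = 0.256). WT somata 12 held 5 counts of Syt13, and without that library the log2 fold change was 1.81 with an adjusted p of 0.0169. With the DESeq2 Wald test on all libraries the adjusted p was 0.0238. These were the only 2 of 19 alternatives that called Syt13, and the other 17 did not. Across the 10 fits without a library the adjusted p reached 0.437, and across all alternatives 0.513.

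Syt4 and Syt11, the members with the highest CPM in somata, had lower means in the somata labelled KO and did not pass edgeR's test. Syt4 had a mean of 751 ± 116 CPM against 1058 ± 149.8 CPM in WT (SD, n = 5), and 4 of 5 labelled KO libraries lay below all WT libraries. Its log2 fold change was -0.50 ± 0.13 (interval -0.77 to -0.23, adjusted p = 0.136; DESeq2 Wald test, adjusted p = 0.00599). Syt11 had a mean of 489 ± 35 CPM against 641 ± 91.1 CPM, and all 5 labelled KO libraries lay below all WT libraries. Its log2 fold change was -0.39 ± 0.10 (interval -0.62 to -0.17, adjusted p = 0.148; DESeq2 Wald test, adjusted p = 0.0117). Neither was called in edgeR's test when any of the 10 libraries was left out, with adjusted p of 0.0953 to 0.289 for Syt4 and 0.0927 to 0.316 for Syt11.

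Among the calcium-binding members, Syt3 had a log2 fold change of 0.43 ± 0.18 in somata (adjusted p = 0.525), with 3 of 5 labelled KO libraries above all WT libraries. Values were -0.20 ± 0.17 for Syt1, -0.19 ± 0.09 for Syt5, 0.33 ± 0.26 for Syt7 and -1.33 ± 1.02 for Syt2, with adjusted p of 0.923, 0.613, 0.899 and 0.894. Syt16 stood at 0.11 ± 0.11 with an interval of -0.14 to 0.36 (adjusted p = 0.956). The intervals of Syt1, Syt2, Syt5, Syt7 and Syt16 included 0, and for Syt16 the interval excludes a change of more than 0.36 in either direction. Beside these values, the summed level of 10 cortical interneuron markers was 385 to 534 CPM in somata labelled KO and 116 to 187 CPM in WT somata. Of the 9 tested, Npy alone passed, with a log2 fold change of 2.06 (adjusted p = 0.000196). The sum without Npy, taken after its value was seen, was 11.9 to 54.9 CPM in somata labelled KO and 19.1 to 64.2 CPM in WT somata, which overlapped. The 12 markers of subcerebral projection neurons, Bcl11b included, summed to 2853 to 3074 CPM and 2425 to 2672 CPM, with 4 called higher and 2 lower. Bcl11b alone had means of 1150 CPM in somata labelled KO and 700 CPM in WT somata (TMM-scaled). The sums therefore do not show that the other markers rose as a group. The part of the subcerebral markers in the values of the synaptotagmin genes was not tested.

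Growth cones labelled KO were compared with WT growth cones in the same way. None of the 10 members passed in edgeR's test (0.0% of all 15419 genes tested did), in the DESeq2 Wald test (0.0713%) or in limma-voom (0.0%), and 0 members had an unadjusted p under 0.05, against 329 of all genes (2.13%). The groups overlapped for all 10 members, and 0.532% of all genes had groups without overlap. The log2 fold changes were between -0.33 (Syt13, interval -1.27 to 0.60) and 0.27 (Syt2, interval -2.52 to 3.06), all with an adjusted p of 0.9995. The narrowest intervals were those of Syt11 (-0.26 to 0.29), Syt5 (-0.55 to 0.19) and Syt4 (-0.46 to 0.32). Wider intervals belonged to Syt17 (-1.51 to 0.99), Syt7 (-0.64 to 0.88) and Syt1 (-0.74 to 0.41), and a p that misses the threshold does not show that the genotypes were alike.

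**Figure D3:**
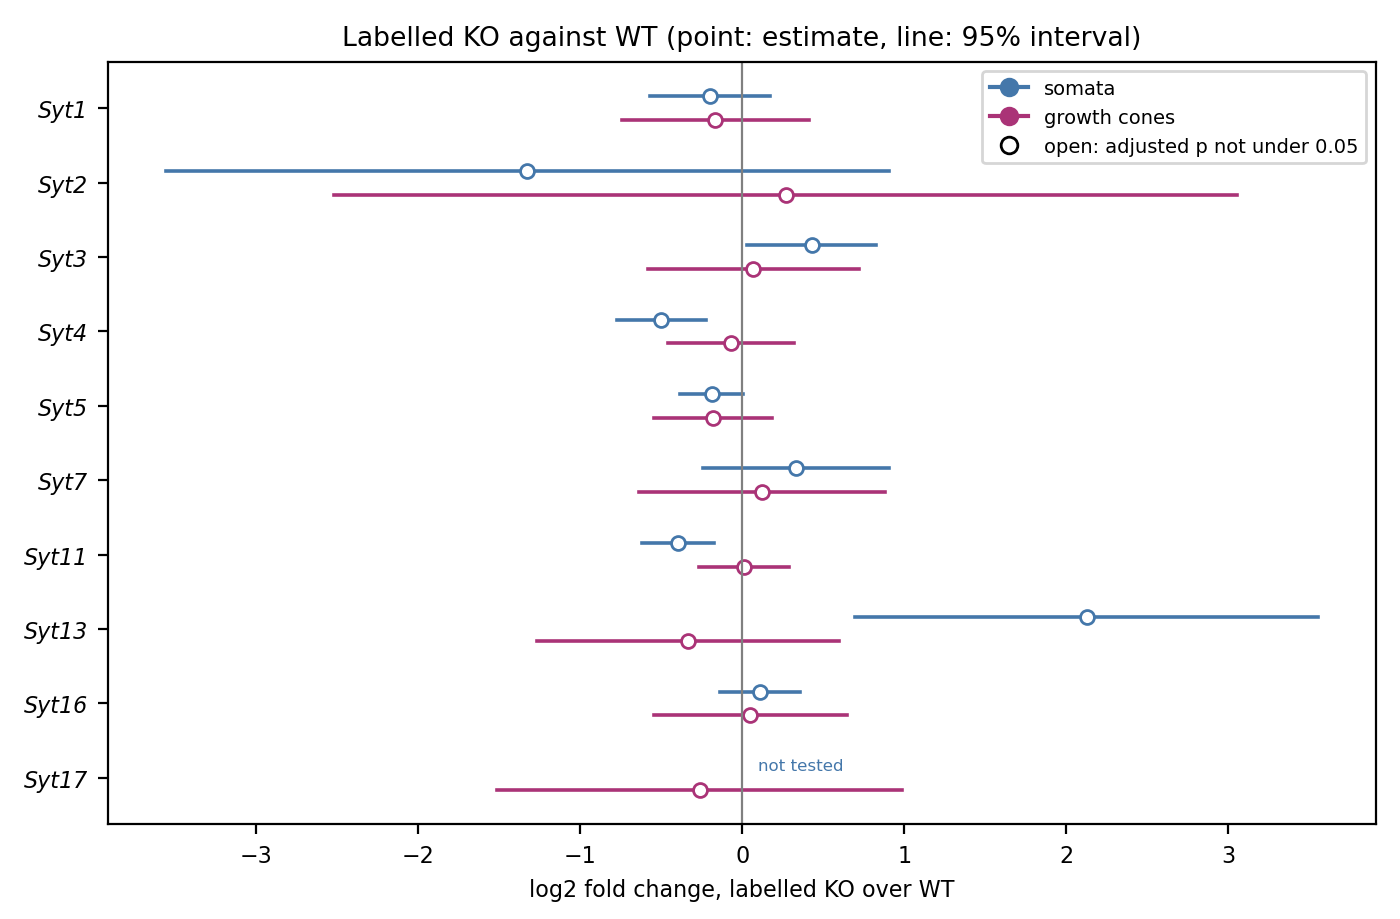
Log2 fold change of each synaptotagmin gene, labelled KO over WT (x axis), in somata and in growth cones; points are edgeR estimates, lines 95% intervals, and open points did not pass an adjusted p of 0.05. All points are open; in somata Syt4 (-0.50), Syt11 (-0.39), Syt3 (0.43) and Syt13 (2.13) have intervals that do not include 0, and Syt17 was not tested there.

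An interaction term fitted to all 20 libraries tested whether the compartment difference depended on the genotype. No member passed in edgeR's test, the DESeq2 Wald test or limma-voom, against 0.0397%, 1.48% and 0.0283% of 17645 genes. An unadjusted p under 0.05 was found for 2 members, against 6.98% of all genes. These were Syt13, whose estimated growth cone excess was smaller in labelled KO libraries, with a value of -2.47 ± 0.83 on the log2 scale (unadjusted p = 0.00772, adjusted p = 0.451), and Syt11, whose estimated fall was smaller there, with a value of 0.39 ± 0.15 (unadjusted p = 0.0177, adjusted p = 0.55). The growth cone levels of both genes overlapped between the genotypes while their soma levels did not. Syt4 had a value of 0.40 ± 0.21 (adjusted p = 0.77). For Syt5, with -0.01, the interval was -0.35 to 0.34, and for Syt1, with 0.01, it was -0.69 to 0.70.

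As a share of all synaptotagmin transcripts per length, the growth cone pool was more mixed than the soma pool. Syt4 made up 40.9 ± 4.53% (SD, n = 5) of the level summed over the 17 synaptotagmin genes in WT somata, and 16.2 ± 2.65% in WT growth cones. Syt5 held 22.6 ± 1.67% and 20.9 ± 3.05%, and Syt11 18.5 ± 2.45% and 21.1 ± 2.01%. In WT the mean shares of Syt5 and Syt11 thus differed by less than 3 percentage points between compartments, while the scaled level of both genes was lower in growth cones. The summed level of the family was 664 ± 31.3 CPM per kb in WT somata and 274 ± 30.1 in WT growth cones. Syt1 held 7.26 ± 2% and 11.5 ± 3.12%, Syt13 0.231 ± 0.143% and 8.54 ± 3.83%, and Syt17 0.02 ± 0.0267% and 3.11 ± 1.78%. In labelled KO libraries Syt4 held 34.8 ± 3.24% of the pool in somata and 16.4 ± 3.79% in growth cones, with sums of 553 ± 42.4 and 251 ± 14.2 CPM per kb. Syt5 held 23.9 ± 1.26% and 19.99 ± 2.41% there, and Syt11 17.1 ± 1.95% and 22.9 ± 2.09%, whose libraries reached 19.2% at most in somata and 26.2% in growth cones, without overlap. The shares are descriptions of these libraries and were not tested.

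**Figure D4:**
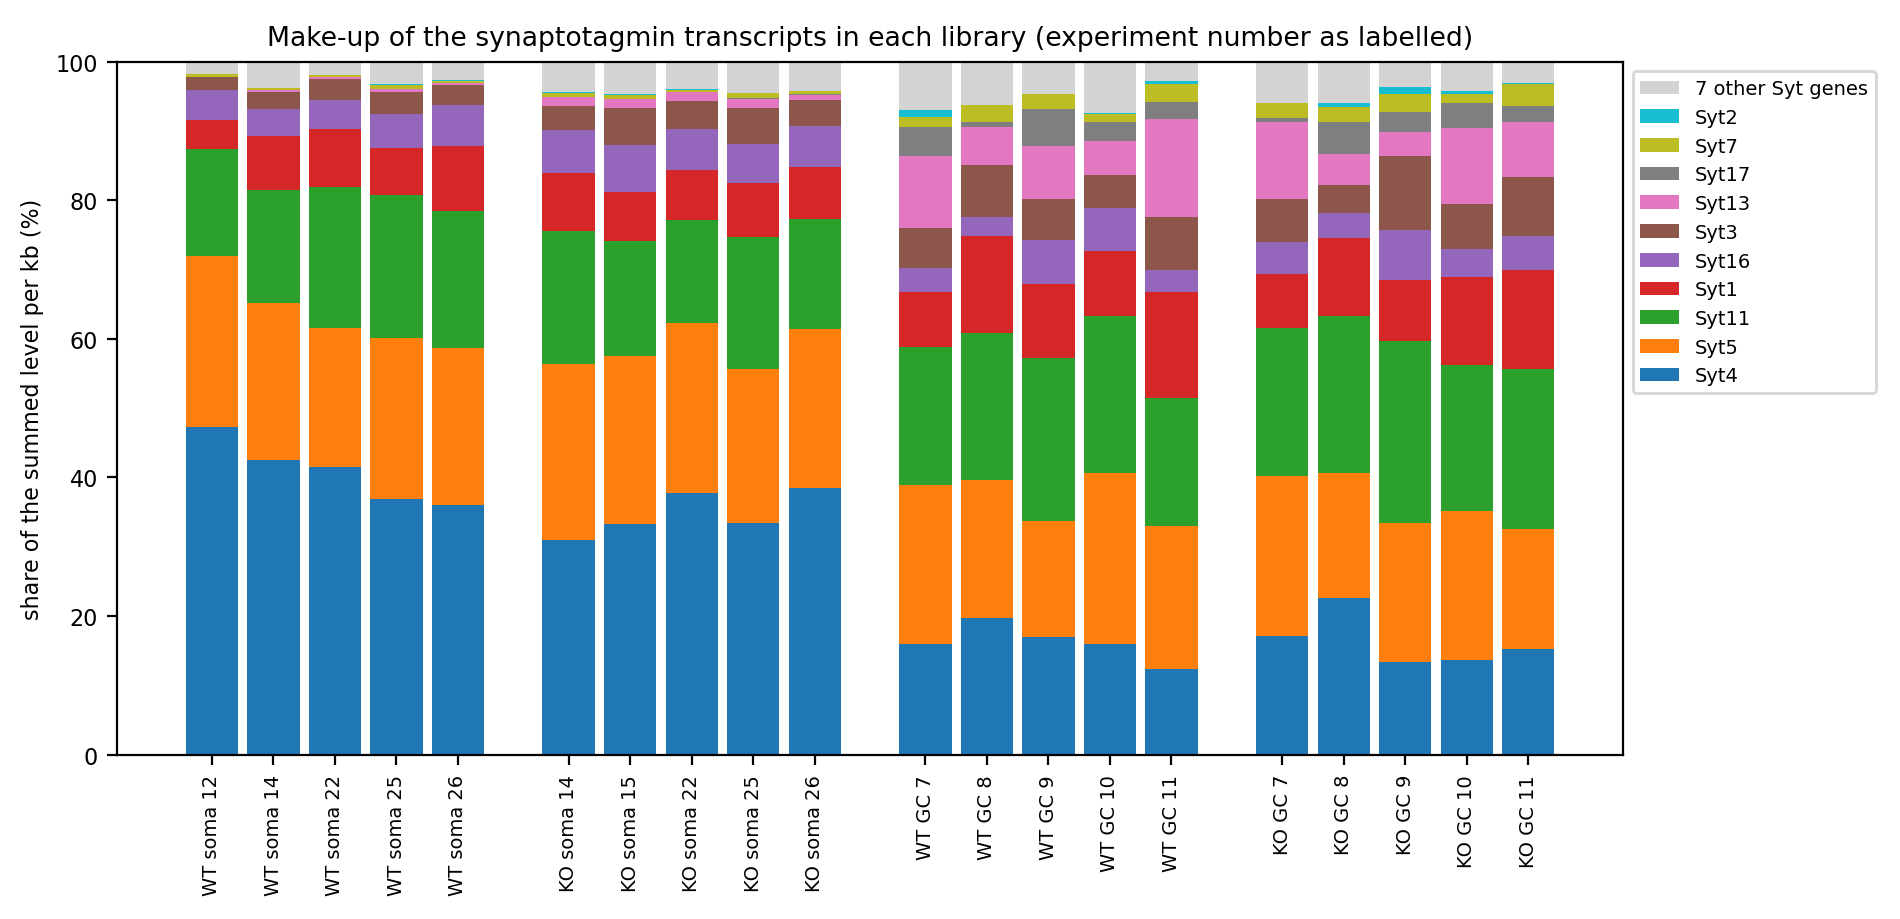
Share of each synaptotagmin gene in the level per kb summed over 17 synaptotagmin genes (y axis, percent) in each of the 20 libraries (x axis, group and experiment number). Syt4 (lowest segment) fills 30.9% to 47.2% of each soma bar and 12.3% to 22.6% of each growth cone bar, and Syt13 and Syt17 are visible mainly in growth cones.

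The other 7 synaptotagmin genes were low or did not pass in WT libraries. Of 5 tested, 0 passed in edgeR's test between WT growth cones and WT somata, and 0 had an unadjusted p under 0.05, against 50.8% of all genes. Syt9, another fast sensor, lay at 52 ± 13.5 CPM in WT somata and 28.9 ± 16.4 CPM in WT growth cones (SD, n = 5; log2 fold change -0.80 ± 0.42, adjusted p = 0.147), and it was lower in growth cones labelled KO than in somata labelled KO (-1.39 ± 0.41, adjusted p = 0.0185). Syt10, a sensor for IGF-1 secretion in olfactory neurons, had 36, 53, 53, 144 and 74 counts in somata labelled KO. All 5 growth cones labelled KO held 0, at least 16.2-fold lower on a floor of 3 counts per library. Between these groups Syt10 passed edgeR's test (adjusted p = 0.000329). It entered that test only through somata, where it is higher, so the p-value is not independent support for the direction. In WT growth cones it had 80, 83, 0, 0 and 0 counts. Syt6, a relative of Syt3, was at 48.3, 53, 55.4, 71.8 and 15.4 CPM in somata labelled KO and 11.2, 17.8, 10.01, 26.9 and 4.3 CPM in WT somata, with 4 of 5 labelled KO libraries above all WT libraries and a log2 fold change of 1.79 ± 0.47 (unadjusted p = 0.00265, adjusted p = 0.161). Syt6 and Syt12 share 505 and 950 exonic bases with opposite-strand genes (Atg4a-ps and A930001C03Rik), whose reads cannot be told apart from theirs. Syt12 and Syt14 did not pass in any comparison, with adjusted p of at least 0.189. Syt15 had 546 counts in WT growth cones 7, 144 in WT growth cones 11, 1 in WT growth cones 8, and 41 and 10 in somata 15 and 22 labelled KO. It had 0 in every other library, and Syt8 had 0 counts in all 20.

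Genes of proteins that work with synaptotagmins in fusion were more often lower than higher in growth cones. Of 18 matched genes of the fusion machinery, 10 were lower in WT growth cones than in WT somata (19.7% of all genes tested) and 2 higher (23.1%). Their median log2 fold change was -0.72, against 0.07 over all genes tested. Among those lower were Snap47 (-1.17 ± 0.14, adjusted p = 4.63e-05), Stx1a (the plasma membrane SNARE syntaxin; -0.81 ± 0.12, adjusted p = 0.000231) and Snap25 (its SNARE partner; -1.23 ± 0.20, adjusted p = 0.000458). In labelled KO libraries 8 of them were lower (17.0% of all genes tested) and 4 higher (21.6%). Among those lower were Napa (alpha-SNAP, which helps take SNARE complexes apart; -0.94 ± 0.13), Snap25 (-0.91 ± 0.14) and Snap47 (-1.04 ± 0.17). Of 7 tested among 12 related proteins with tandem C2 domains, Rph3a (rabphilin, a Rab3 partner on synaptic vesicles) was higher in WT growth cones (1.44 ± 0.36, adjusted p = 0.00633) and in growth cones labelled KO (1.09 ± 0.31, adjusted p = 0.0148), and Esyt2 (a tether of the endoplasmic reticulum to the cell membrane) was lower in WT growth cones (-3.37 ± 0.72, adjusted p = 0.00259). None of either list passed between genotypes in edgeR's test: in somata 1 of 17 fusion machinery genes and 2 of 7 related genes had an unadjusted p under 0.05, against 8.57% of all genes, and in growth cones 0 of 18 and 0 of 7, against 2.13%.

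The genes whose levels followed the 4 most abundant members most closely over the 20 libraries were found among the 11339 genes whose mean reached 5 CPM, by Pearson's r of log2(CPM + 0.5). For Syt4 they were Pcdha9 (r = 0.981), Dpysl3 (0.977) and Ncam1 (0.974). For Syt5 they were Prmt1 (0.981), the pseudogene Tubb2a-ps2 (0.981), whose reads may be shared with its parent gene, and Pcdha2 (0.978). For Syt11 they included Trim2 (0.947) and Map1b (0.947), and for Syt1 they were Nfe2l1 (0.872), Snap91 (0.868) and Wdr17 (0.854). Growth cones and somata of each genotype did not overlap in Syt4, Syt5 and Syt11 and overlapped in Syt1, and libraries of a compartment share dissected region, RNA input and range of depth, so these values describe the likeness over all libraries and not within a compartment.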

How the data were processed

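Per the labels' protocols, RNA from a Qiagen micro kit went through SMART-seq v4 and Nextera XT. The authors deposited raw, unscaled gene counts for all libraries in 1 table. Per the submitters' processing notes, Trimmomatic 0.39, STAR 2.7.1a, featureCounts 1.5.0 and the build GRCm39 were used. The coordinates in the deposited table are however those of GRCm38: 54349 of 55487 genes (97.9%) have the exon list of GENCODE M21. Symbols (for 55141 genes) were attached by gene ID without version. Gene positions are those of the deposited table, and positions of the coding stretches come from GENCODE M21. Use of strand and of multimapping reads is not given in the sources used here.

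Counts were tested with edgeR 4.0.16 (R 4.3.3): filterByExpr with a minimum count of 10, TMM scaling, the quasi-likelihood F test, and Benjamini-Hochberg adjustment over all genes tested at an FDR of 0.05. Only the groups compared entered a fit, and the interaction used all 20 libraries. Standard errors come from the F statistic and 95% intervals from the fit's degrees of freedom. Summed marker levels are CPM of the library total, and their ranges are given without a test. Bcl11b was compared by an exact permutation test over 252 regroupings. Coding stretches were aligned with Biopython 1.88, and scripts were tested on simulated data. There, changes of 1 and of 2 on the log2 scale were given to 100 genes each. Between growth cones of the genotypes, 4% and 29% of these were called in the right direction, and between somata 36% and 49%. Between WT growth cones and WT somata 13% and 38% were. Many true changes of this size would thus not pass. DESeq2 1.42.0, limma 3.58.1 (voom), other scalings, no filter, a covariate and leaving out each library were alternatives. The lowest chi-square per degree of freedom between 2 libraries of a group was 52.7, so none was merged. The libraries carry no molecular identifiers in the protocol, so floors cover counting error only.

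The text names all members and other synaptotagmins, up to 4 genes of lowest p per partner list and comparison, and 3 genes most like each of the 4 most abundant members. The members and lists were chosen with earlier results of these data known. Table columns left unmatched to a sample numbered 0. Libraries were grouped by title, and compartment comparisons share soma or growth cone libraries with the genotype comparisons. Single values of some genes that the rule for named genes selects are not reported here.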

Additional observations from a re-analysis of the deposited data

Results flagged for a closer look

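In each of 40 groups (10 members in 4 groups of 5 libraries), the gap from the most extreme library to its neighbour was set against the range of the group, and chance alone passes the limit in about 1 in 20 groups. Of the 40, 2 passed. Syt5 was highest in WT somata 12, at 401.9 CPM against 354.5 CPM in the next library, a gap of 0.752 of the range. Syt13 was lowest in somata 26 labelled KO, at 15.37 CPM against 25.89 CPM in the next library, a gap of 0.763 of the range. That library still lay above all 5 WT somata, whose highest was 9.03 CPM of Syt13.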

How the results depend on the processing

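Of 1001 recomputed log2 fold changes of the members, 913 kept their direction and their side of the threshold, 22 lost a call, 8 gained one and 58 changed sign, 0 of these where either fit made a call. Syt4, Syt5, Syt11, Syt13 and Syt16 kept their compartment calls in both genotypes under every alternative run, as did Syt17 in WT. Members called in WT growth cones against somata numbered 6 to 7 without single libraries, and 6 to 8 in labelled KO libraries. In somata by genotype, 3 members were called by the DESeq2 Wald test and 0 to 1 without single libraries.

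All genes called between the genotypes in somata numbered 109 in edgeR's fit of the 2 groups, 393 with DESeq2, 30 with all 20 libraries in one fit and 67 to 107 without single libraries. In growth cones they numbered 0, against 11 with DESeq2 and 7 with all 20 libraries. For the interaction they numbered 7, against 262 with DESeq2, 4 with detected genes as a covariate and 5 to 12 without single libraries. The cause of these differences was not tested. Upper-quartile scaling moved the median over all genes, growth cones over somata, to 0.28 in WT and 0.31 in labelled KO libraries, with 3990 genes higher and 2347 lower and 3784 and 2128, against 3500 and 2976 and 3328 and 2620 with TMM. With limma-voom the medians were -0.17 and -0.19.

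Values that changed sign were small or uncertain. They were, in WT growth cones against somata, Syt2 with limma-voom (-0.30) and Syt3 without a filter (-0.018) and with all 20 libraries (-0.023). Between growth cones of the genotypes they were Syt2 with the covariate (-0.10), and Syt11 with library totals (-0.0050) and all 20 libraries (-2.79e-05). In the interaction they were Syt1 with limma-voom (-0.065) and the covariate (-0.095), Syt5 with DESeq2 size factors (0.0056), upper-quartile scaling (0.0100) and DESeq2 (0.0055), and Syt17 with limma-voom (0.59). Without single libraries the ranges were -0.147 to 0.166 for Syt3 in WT growth cones against somata. Between growth cones of the genotypes they were -0.31 to 0.0545 for Syt1, -0.236 to 1.23 for Syt2, -0.0856 to 0.236 for Syt3, -0.227 to 0.00905 for Syt4, -0.0814 to 0.331 for Syt7, -0.0226 to 0.0622 for Syt11, -0.525 to 0.0267 for Syt13, -0.104 to 0.219 for Syt16, -0.521 to 0.0163 for Syt17 and -0.161 to 0.0899 for Bcl11b. In the interaction they were -0.141 to 0.237 for Syt1, -0.0948 to 0.0722 for Syt5 and -0.25 to 0.0791 for Syt16.

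The titles give libraries of both genotypes the same experiment numbers, without saying what such libraries share. Correlations of same-numbered libraries' deviations were 0.026 to 0.109 in growth cones and 0.012 to 0.134 in somata. Of the WT libraries with a partner, 4 of 5 growth cones and 3 of 4 somata correlated best with their own number. That is a hint from the data and not from the design. With the number as a replicate block, 34 genes were called in somata (WT 12 and labelled KO 15 have no partner), 0 in growth cones and 0 in the interaction, where Syt16 changed sign to 0.0078, and 0 members were called in each. Growth cones and somata share no number, so no paired fit was possible between them. Counts were low in single somata for Syt2, Syt13 and Syt17, where the lowest library held 0, 5 and 0 counts and the highest 249, 1388 and 138. The cause of this spread was not tested.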
